A study of Arabidopsis thaliana with 18 samples.

Results

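AT3G28270, AT3G10020 and AT3G24100 are 3 protein-coding Arabidopsis genes to which RefSeq gives a locus number and no symbol. Each is measured by 1 probe set that is paired with it alone, so the 3 genes are 3 of 13286 named in this way and 3 of the 15922 probe sets tested. They were chosen by their log2 changes from 12 °C in earlier results of these same arrays, where they stood among the large increases after the shift to 27 °C. Their changes from 12 °C are therefore given below as a description, with a standard error (SE) and no test. Tests of the 3 genes are given for the other contrasts only. Those contrasts use some of the same arrays, and the difference of changes between genotypes is built from the changes from 12 °C themselves. None of these tests is independent of the choice.

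Plants adjust their transcripts to ambient temperature within hours. Moderate warmth raises chaperone genes quickly through heat shock transcription factors, while growth, photosynthesis and defence genes shift more slowly. ARP6 is a subunit of the SWR1 complex, which exchanges histone H2A for the variant H2A.Z, and H2A.Z nucleosomes lose occupancy in the warm. The function of the 3 genes is not annotated in the tables used here, and none is assigned to them.

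The seedlings were wild-type Col-0 or the mutant arp6-10, which is represented by that 1 allele. Seeds on MS medium without sugar were held at 4 °C in the dark for 48 h, grown at 20 °C in the light and moved on day 5 to 12 °C and continuous light for 3 days. Whole 8-day-old seedlings were frozen at 12 °C, or 2 h or 24 h after a shift to 27 °C. There were 2 arrays per time point for Col-0 and 4 for arp6-10, 18 in all, and this number limits the precision. No group stayed at 12 °C for the same 2 h or 24 h, so warmth and elapsed time cannot be told apart, and in whole seedlings a change in the cells that express a gene cannot be told apart from a change per cell. Separate cultures are not named for the arrays of a group. The p-values therefore rest on array-to-array spread that may be technical. No probe set of ARP6 was used, and the labels alone give the genotype.

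A pair of arp6-10 arrays went against their labels over the rest of the transcripts. Along the axis from the other 12 °C arrays (0) to the other 24 h arrays (1) of arp6-10, computed over 15919 probe sets without the 3 genes, the array labelled 12 °C replicate 3 lay at 0.96 and the array labelled 24 h replicate 2 at -0.04. Their group mates, each left out of its own reference, lay between 0.08 and 0.14 at 12 °C and between 0.88 and 0.93 at 24 h. All groups below keep their labels, and values from the other 16 arrays are set beside those that rest on these arrays. That second value depends on the choice of arrays, for Col-0 through the shared spread, and is no independent test. For GAPDH, whose 3'/5' signal ratio gauges RNA integrity, the ratio ran from 1.47 to 6.78 over all arrays, and was 5.51 and 1.51 on these 2. The mean of 18 hybridization control probe sets had a median of 4450 on Col-0 arrays (4215 to 6573) and 3316 on arp6-10 arrays (2813 to 4579). Shoot and root markers both gave signal. Mean log2 signals were 12.32 to 13.67 for 3 shoot genes (LHCB4.2, PSAE-1, PRK) and 9.03 to 10.30 for 4 root genes (NAI2, PYK10, EXPA7 and AT5G17820). The root genes differed widely, with group means of 5.92 to 6.99 for EXPA7 and 12.74 to 13.48 for PYK10, where the smallest log2 value is 4. No seed marker had a probe set paired with it alone.

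AT3G28270 rose early and stayed up. Its deposited intensity in Col-0 was 38.1 and 27.6 at 12 °C, 411 and 274 after 2 h, and 459.1 and 437.8 after 24 h. Both warm groups lay far above the cool arrays, and the 24 h arrays lay just above the 2 h arrays. In arp6-10 the 4 arrays stood at 72.3, 54.3, 301.9 and 32.7 at 12 °C, at 411.5, 499.7, 278.7 and 354.5 after 2 h, and at 327.1, 40.4, 309.4 and 277.4 after 24 h. The value of 301.9 belongs to the array labelled 12 °C replicate 3 and that of 40.4 to the array labelled 24 h replicate 2, and each sits among the arrays of the other label. Without that pair, every 12 °C array of arp6-10 lay below every warm one.

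On the log2(value + 16) scale after quantile normalization, AT3G28270 changed in Col-0 by 2.84 ± 0.73 (SE) after 2 h, a 7.17-fold rise, and by 3.15 ± 0.73 (SE) after 24 h, an 8.9-fold rise. These were the 17th and 10th largest increases among 15922 probe sets. From 16 arrays the Col-0 changes were 2.84 ± 0.27 (SE) and 3.16 ± 0.27 (SE). The gene is dim at 12 °C, where its signal may be background, and the added 16 makes the fitted change smaller. Without the added 16 or quantile normalization, the ratio of mean deposited intensities in Col-0 was 10.4 at 2 h and 13.7 at 24 h. In arp6-10 the change was 2.02 ± 0.52 (SE) at 2 h and 1.03 ± 0.52 (SE) at 24 h with all arrays as labelled, and 2.56 ± 0.20 (SE) and 2.19 ± 0.22 (SE) in the fit of 16 arrays. With all arrays the step from 2 h to 24 h was small beside its SE of 0.73 in Col-0. In arp6-10 it was a fall larger than its SE of 0.52. It was 0.31 (95% interval -1.23 to 1.85) in Col-0 and -0.99 (-2.08 to 0.10) in arp6-10, and limma did not call it (adjusted p = 0.858 and 0.371). From 16 arrays it was 0.31 (-0.24 to 0.87) and -0.37 (-0.80 to 0.05), and limma again did not call it (adjusted p = 0.479 and 0.253).

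**Figure D1:**
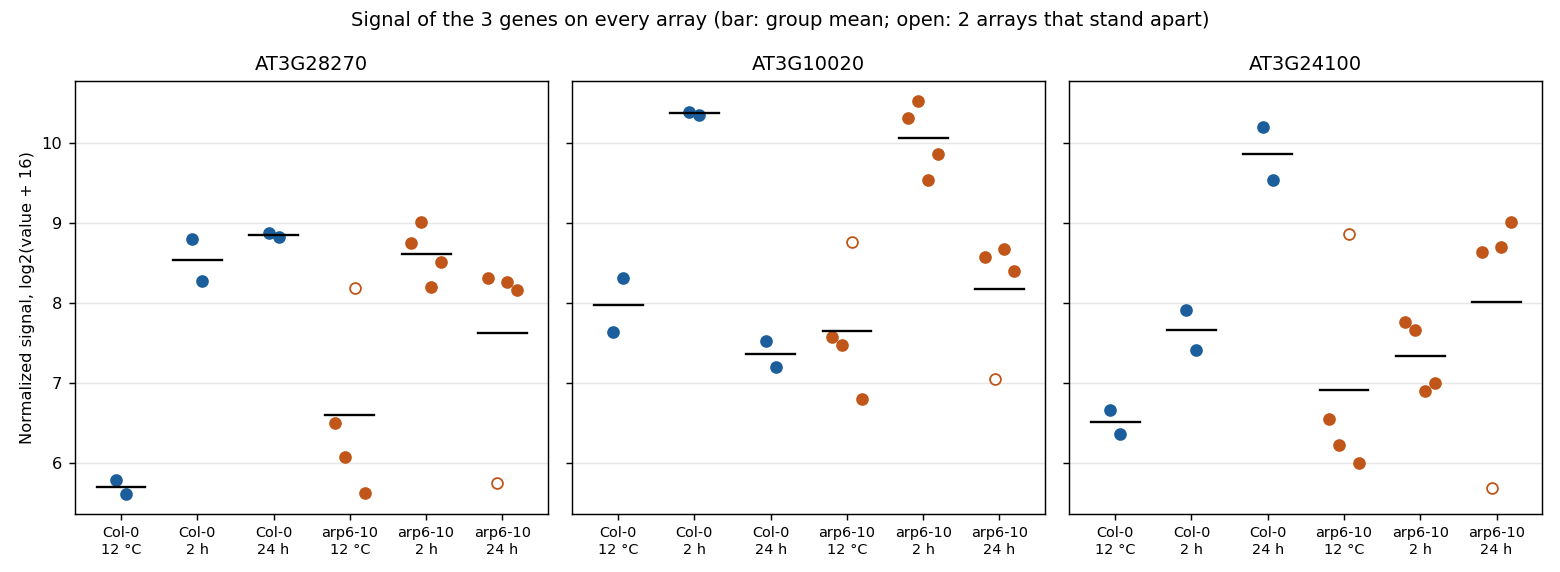
Normalized signal, log2(value + 16), of AT3G28270, AT3G10020 and AT3G24100 on each of the 18 arrays by genotype and time, with 1 point per array, a bar at the group mean and open points for the arrays labelled arp6-10 12 °C replicate 3 and 24 h replicate 2. AT3G28270 is high at both warm times, AT3G10020 at 2 h and AT3G24100 at 24 h, and the open points lie with the arrays of the other label.

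AT3G10020 rose early and came back down. In Col-0 its intensity was 163 and 274.2 at 12 °C, 1403.2 and 1301.5 after 2 h, and 179.4 and 133.7 after 24 h. The 2 h arrays stood alone, and the 24 h arrays overlapped the cool ones in deposited intensity, though after normalization both lay below them. In arp6-10 the arrays read 171.4, 168.4, 436.2 and 97 at 12 °C, 1284.2, 1498.6, 736.2 and 944.7 after 2 h, and 385.4, 120.6, 407.2 and 325.4 after 24 h. Here too the 2 h arrays were above all others. The arp6-10 24 h arrays apart from replicate 2 were intermediate, above the Col-0 24 h arrays and below every 2 h array.

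The early change of AT3G10020 was of similar size in both genotypes. It was 2.40 ± 0.54 (SE) log2 units in Col-0, a 5.28-fold rise and the 24th largest increase, and 2.41 ± 0.38 (SE) in arp6-10, a 5.32-fold rise and the 19th largest. The fit of 16 arrays gave 2.42 ± 0.30 (SE) and 2.80 ± 0.23 (SE). By 24 h the change from 12 °C was -0.61 ± 0.54 (SE) in Col-0, or -0.62 ± 0.30 (SE) from 16 arrays. It was 0.52 ± 0.38 (SE) in arp6-10, or 1.28 ± 0.25 (SE) from 16 arrays.

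The fall of AT3G10020 between 2 h and 24 h passed the test in both genotypes. It fell 8.08-fold in Col-0 (log2 difference -3.01 ± 0.54 SE, limma adjusted p = 0.0048) and 3.7-fold in arp6-10 (-1.89 ± 0.38 SE, adjusted p = 0.0145). All 24 h arrays lay below all 2 h arrays of their genotype, 2 of 2 in Col-0 and 4 of 4 in arp6-10. This was 1 of the 3 genes called lower in each genotype, where 1.94% of all tested probe sets were called lower in Col-0 and 0.923% in arp6-10. A gene chosen for high 2 h values tends to fall from them, so the direction is not independent of the choice. The Col-0 call ended without Col-0 2 h replicate 2 (adjusted p = 0.0541) or 24 h replicate 1 (adjusted p = 0.0508), and the arp6-10 call without 2 h replicate 1 (adjusted p = 0.0543) or 2 (adjusted p = 0.0646), with log2 differences of -3.02, -3.19, -1.80 and -1.73 in these fits. From 16 arrays both calls stood, at -3.03 and -1.52 (adjusted p = 3.44e-06 and 0.000146), where 6.24% and 7.82% of probe sets were called lower.

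AT3G24100 rose late. In Col-0 its intensity was 74.8 and 53 at 12 °C, 202.8 and 139.7 after 2 h, and 1123 and 720.8 after 24 h, so the 3 groups followed each other with no overlap. In arp6-10 it was 76, 62, 468.7 and 48.4 at 12 °C, 200.5, 185.4, 102.4 and 109.6 after 2 h, and 401.5, 38.1, 411.4 and 499.8 after 24 h. The order of the times was the same in arp6-10 once the array labelled 12 °C replicate 3, the second highest of all 12 arp6-10 arrays, and the array labelled 24 h replicate 2, the lowest, were set aside.

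The 24 h change of AT3G24100 in Col-0 was the seventh largest increase of all, 3.36 ± 0.89 (SE) log2 units or 10.2-fold, and the ratio of mean intensities was 14.4. After 2 h it was 1.15 ± 0.89 (SE). From 16 arrays the Col-0 changes were 1.15 ± 0.30 (SE) at 2 h and 3.37 ± 0.30 (SE) at 24 h. In arp6-10 the changes were 0.42 ± 0.63 (SE) at 2 h and 1.1 ± 0.63 (SE) at 24 h as labelled, and 1.08 ± 0.23 (SE) and 2.54 ± 0.24 (SE) from 16 arrays. Between 2 h and 24 h the log2 difference was 2.20 (95% interval 0.32 to 4.08) in Col-0 and 0.68 (-0.65 to 2.01) in arp6-10, and limma called neither with all arrays (adjusted p = 0.165 and 0.656). It called both from 16 arrays, at 2.22 ± 0.30 (SE, adjusted p = 9.3e-05) and 1.46 ± 0.23 (SE, adjusted p = 0.000196), where 7.67% and 7.06% of probe sets were called higher, and it called the Col-0 step in a fit of those 2 groups alone (2.23, adjusted p = 3.65e-05). Of the 3 shoot markers, with all arrays, PSAE-1 and PRK rose in Col-0 at 24 h (adjusted p = 0.0244 and 0.0161), where 10.3% of probe sets rose, and none of the 3 passed in arp6-10. From 16 arrays all 3 rose in Col-0 at 24 h, where 16.8% rose. In arp6-10 LHCB4.2 then rose at 2 h (1.42, adjusted p = 1.00e-07), where 8.38% rose, and LHCB4.2 and PRK at 24 h (1.94 and 0.75, adjusted p = 3.43e-09 and 0.000977), where 14.0% rose. Their mean log2 signal lay between 12.32 and 12.58 on the Col-0 12 °C arrays and between 13.54 and 13.60 on the 24 h arrays, and was 13.57 for arp6-10 12 °C replicate 3 and 12.42 for 24 h replicate 2. Of the 4 root markers NAI2 alone rose from 12 °C, in Col-0 at 24 h and, from 16 arrays, also in arp6-10 at 24 h (0.69, adjusted p = 0.00688). Their part in the change of AT3G24100 was not tested.

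**Figure D2:**
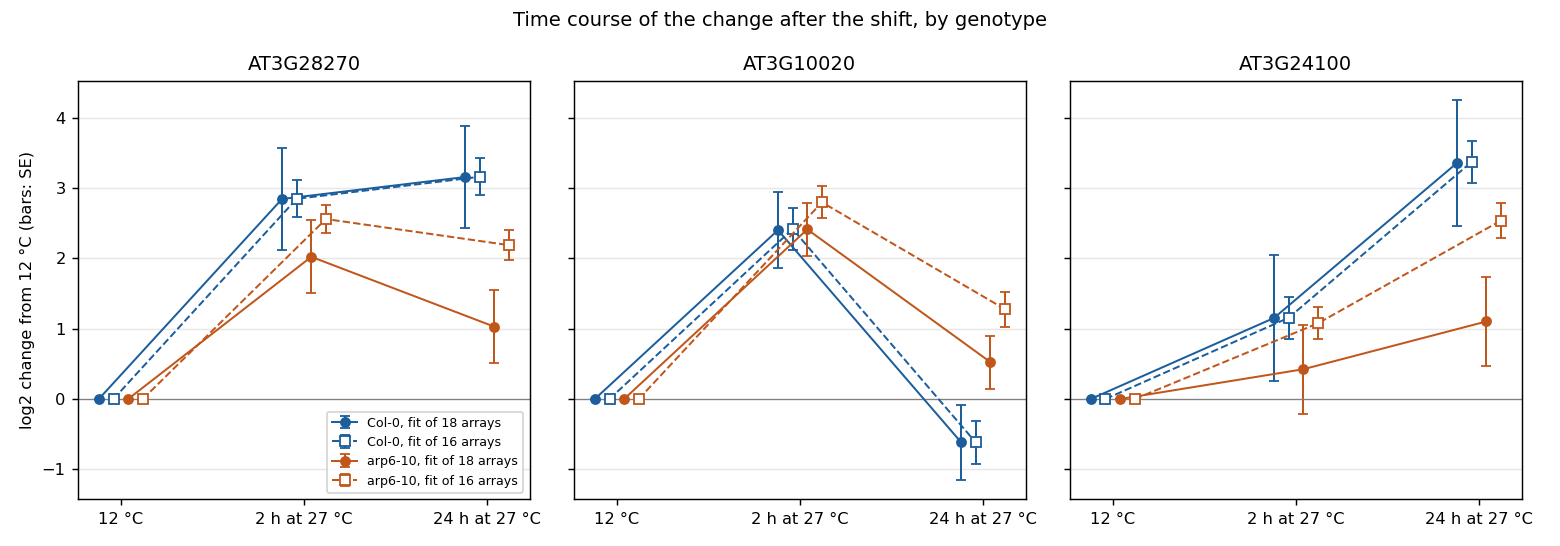
Change in log2(value + 16) from the 12 °C mean of the same genotype after 2 h and 24 h at 27 °C, for Col-0 (blue) and arp6-10 (orange), with SE bars, filled circles for the fit of 18 arrays and open squares for the fit of 16. In Col-0 AT3G28270 has a sustained course and AT3G10020 a transient one, while AT3G24100 is up at 2 h and further up at 24 h. In arp6-10 AT3G28270 and AT3G10020 are higher at 2 h than at 24 h, and AT3G24100 is higher at 24 h, in either fit. The arp6-10 values at 24 h move up in each panel when the 2 arrays are set aside, and AT3G10020 then stays above its 12 °C mean.

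Ordered by mean log2 level, AT3G28270 was lowest in Col-0 at 12 °C (5.70 ± 0.13, SD, n = 2) and then in arp6-10 at 12 °C (6.6 ± 1.12, SD, n = 4) and 24 h (7.62 ± 1.25, SD, n = 4). Col-0 at 2 h (8.54 ± 0.37, SD, n = 2), arp6-10 at 2 h (8.62 ± 0.34, SD, n = 4) and Col-0 at 24 h (8.85 ± 0.04, SD, n = 2) closed the order. The ranges of neighbouring groups overlapped at every step of it. Without the 2 arrays the arp6-10 means were 6.06 ± 0.43 (SD, n = 3) at 12 °C and 8.25 ± 0.08 (SD, n = 3) at 24 h, the order was the same, and a gap opened between these groups. For AT3G10020 the 2 h groups of Col-0 (10.38 ± 0.03, SD, n = 2) and arp6-10 (10.06 ± 0.45, SD, n = 4) were on top and overlapped each other. The other 4 groups lay between 7.36 and 8.18 on average and differed from their neighbours by less than the SD of at least 1 of them. Without the 2 arrays arp6-10 was at 7.28 ± 0.43 (SD, n = 3) at 12 °C, the lowest group, and at 8.55 ± 0.14 (SD, n = 3) at 24 h. For AT3G24100 with all arrays, only Col-0 at 24 h (9.87 ± 0.47, SD, n = 2) was clear of the next group, arp6-10 at 24 h (8.01 ± 1.56, SD, n = 4), array by array. Without the 2 arrays arp6-10 at 24 h (8.78 ± 0.21, SD, n = 3) was also clear of Col-0 at 2 h below it, and arp6-10 at 12 °C (6.25 ± 0.27, SD, n = 3) was the lowest group.

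**Figure D3:**
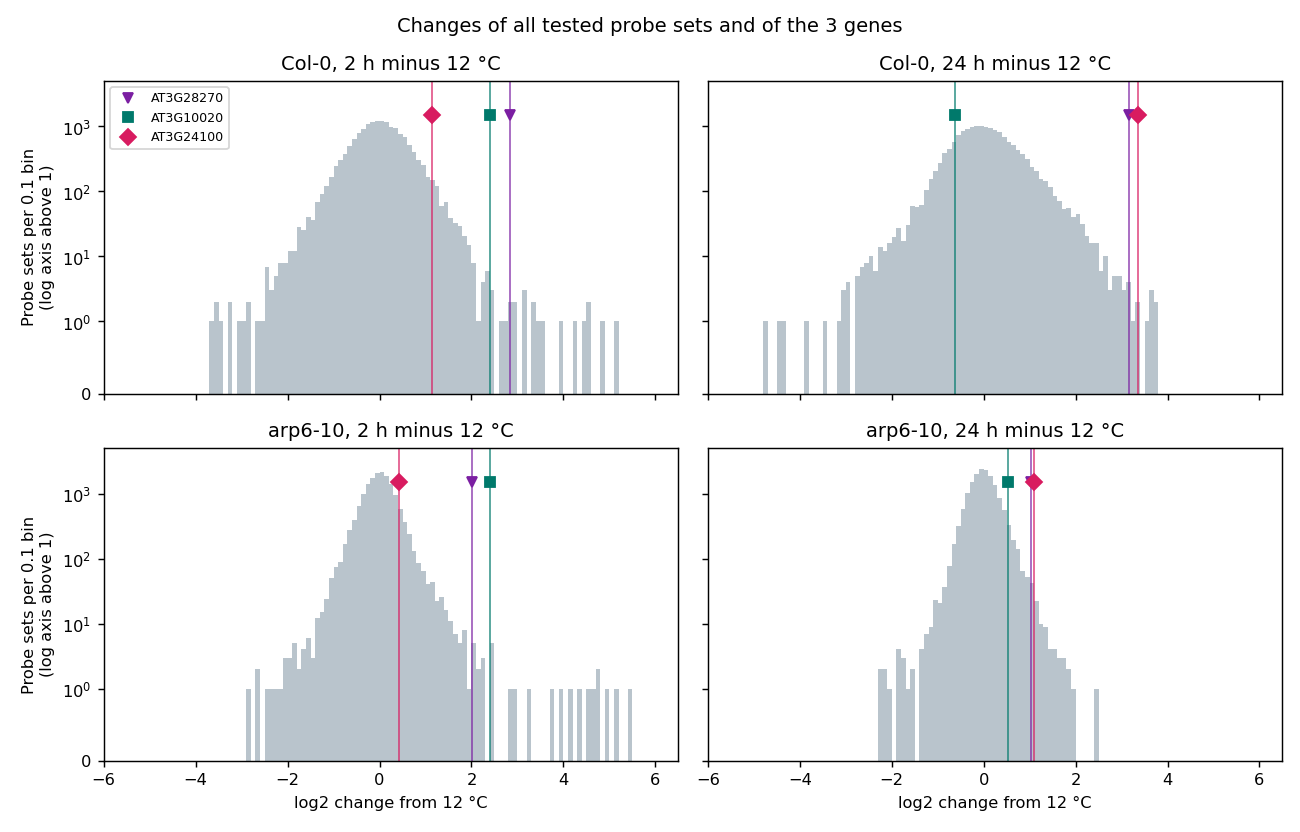
Number of tested probe sets per 0.1-wide bin of log2 change from 12 °C (log axis above 1) in Col-0 and arp6-10 at 2 h and 24 h from the fit of 18 arrays, with a coloured line and marker for each of the 3 genes. AT3G28270 lies in the upper tail in all 4 panels, AT3G10020 in both 2 h panels and AT3G24100 at 24 h, which describes how the genes were chosen.

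The genotypes were then compared at each time. Before the shift, with all arrays, none of the 3 genes was called between arp6-10 and Col-0, although limma called 32.3% of all probe sets there. None of the 3 had an unadjusted p under 0.05, where 6799 of 15922 probe sets did. The log2 differences, arp6-10 minus Col-0, were 0.90 (95% interval -0.43 to 2.23) for AT3G28270, -0.32 (-1.30 to 0.65) for AT3G10020 and 0.39 (-1.23 to 2.02) for AT3G24100. The intervals are wide, and from 16 arrays they were 0.37 (-0.14 to 0.87), -0.70 (-1.27 to -0.12, adjusted p = 0.0515) and -0.26 (-0.82 to 0.31). After 2 h, 9.25% of probe sets were called and 3984 of 15922 had an unadjusted p under 0.05. The differences of the 3 genes were again not called and had no unadjusted p under 0.05. They were 0.08 (-1.26 to 1.41), -0.31 (-1.29 to 0.66) and -0.33 (-1.96 to 1.29), or 0.08 (-0.40 to 0.56), -0.32 (-0.86 to 0.23) and -0.33 (-0.87 to 0.20) from 16 arrays.

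At 24 h the arrays of the genotypes separated for AT3G28270 and AT3G24100. All 4 arp6-10 arrays lay below both Col-0 arrays for either gene, and the array labelled 24 h replicate 2 was the lowest. The log2 difference of AT3G28270 was -1.23 (95% interval -2.56 to 0.11, adjusted p = 0.38) and that of AT3G24100 -1.86 (-3.49 to -0.23, adjusted p = 0.269). AT3G10020 had the opposite sign, at 0.82 (-0.16 to 1.79, adjusted p = 0.433), with 3 of 4 arp6-10 arrays above both Col-0 arrays. With all arrays limma called none of the 3, where it called 0.930% of all probe sets. An unadjusted p under 0.05 was found for 1 of the 3, and for 2333 of all 15922 probe sets.

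The fit of 16 arrays called AT3G10020 and AT3G24100 at 24 h. AT3G24100 was 2.13-fold lower in arp6-10 (log2 difference -1.09 ± 0.27 SE, adjusted p = 0.0344), lower on 3 of 3 arrays, where 1.36% of probe sets were called lower. AT3G10020 was 2.29-fold higher (1.20 ± 0.27 SE, adjusted p = 0.0233), higher on 3 of 3 arrays, where 1.64% were called higher. AT3G28270 stood at -0.61 ± 0.24 (SE, adjusted p = 0.178).

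The last question is whether the change itself differed between genotypes. At 2 h the change in arp6-10 minus that in Col-0 was -0.82 (95% interval -2.71 to 1.06, adjusted p = 0.717) for AT3G28270, 0.01 (-1.37 to 1.39, adjusted p = 0.997) for AT3G10020 and -0.73 (-3.03 to 1.57, adjusted p = 0.803) for AT3G24100. None was called, against 0.590% of all probe sets, and none had an unadjusted p under 0.05, against 2267 of 15922. These intervals allow differences of over 1 log2 unit in either direction. From 16 arrays the values were -0.29 (-0.99 to 0.41), 0.38 (-0.41 to 1.17) and -0.08 (-0.86 to 0.70), again not called (adjusted p = 0.685, 0.631 and 0.935). At 24 h the difference was -2.13 (-4.01 to -0.24, adjusted p = 0.171) for AT3G28270, -2.25 (-4.56 to 0.05, adjusted p = 0.236) for AT3G24100 and 1.14 (-0.24 to 2.52, adjusted p = 0.326) for AT3G10020. Again none was called, where 5.83% of probe sets were. An unadjusted p under 0.05 was found for 1 of the 3 and for 3504 of 15922 probe sets. From 16 arrays the first became -0.97 ± 0.34 (SE, adjusted p = 0.0697) and the second -0.84 ± 0.38 (SE, adjusted p = 0.163). AT3G10020 became 1.89 ± 0.39 (SE) and was called (adjusted p = 0.00408), where 4.45% of probe sets were called higher. On those arrays, on the normalized scale, its 24 h values were below the 12 °C values on both Col-0 arrays and above them on all 3 arp6-10 arrays. The differences of changes are built from the changes from 12 °C that chose the genes, so their p-values are not independent of the choice.

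**Figure D4:**
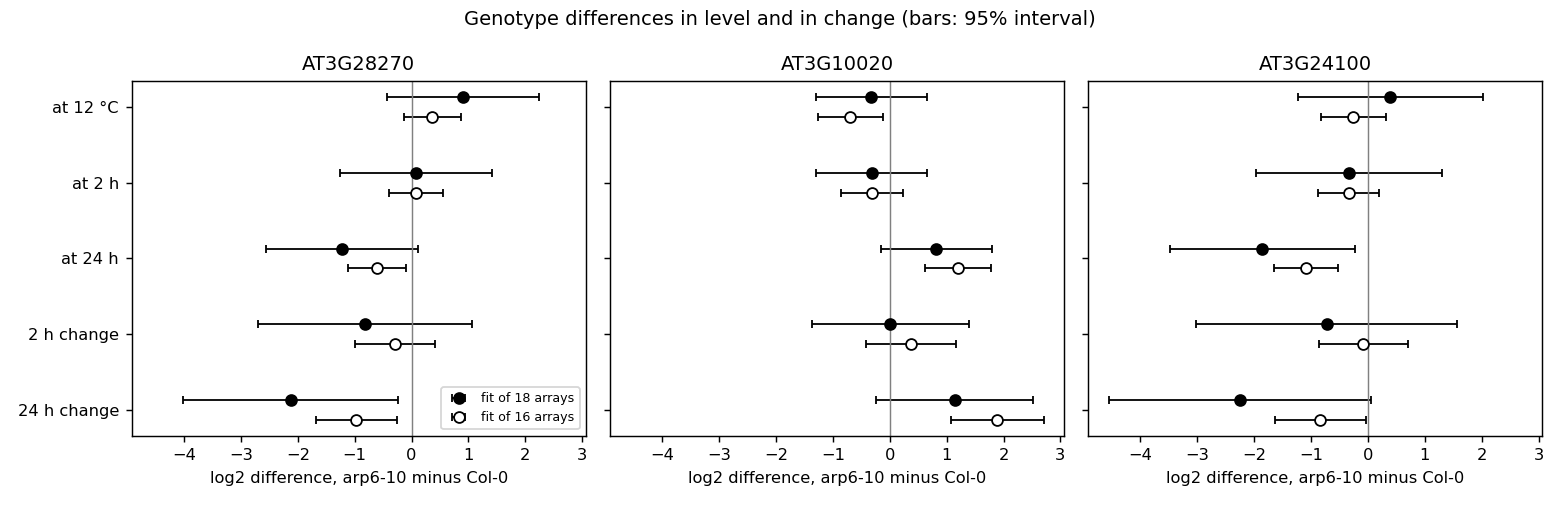
Log2 difference between arp6-10 and Col-0 for the 3 genes in level at 12 °C, 2 h and 24 h, and in change from 12 °C at 2 h and 24 h, with 95% intervals, filled points for the fit of 18 arrays and open points for the fit of 16. At 2 h every interval spans 0. At 24 h the points of AT3G10020 lie to the right of 0 and those of the other 2 genes to the left. In the fit of 18 arrays the 24 h intervals still span 0, except the level of AT3G24100 and the change of AT3G28270. In the fit of 16 they lie clear of 0. The intervals are not adjusted for the number of probe sets.

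With the values as deposited in place of quantile normalization, the median of all probe sets moved by over 0.1 in 4 of the 11 contrasts. The shift was 0.15 in Col-0 from 12 °C to 24 h, 0.13 in Col-0 from 2 h to 24 h, 0.14 between genotypes at 12 °C and -0.10 in the difference of 24 h changes. The 24 h changes in Col-0 were then 3.26 for AT3G28270, -0.41 for AT3G10020 and 3.53 for AT3G24100, with that shift still in them. The genotype differences at 12 °C were 1.03, -0.15 and 0.63, and the differences of 24 h changes -2.19, 0.96 and -2.41, in the same order of genes, with the signs of the main fit and none called. A pseudocount of 64 lowered the changes of the dim gene AT3G28270 to 2.07 at 2 h and 2.35 at 24 h in Col-0.

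Among 8645 other named genes, those most like each of the 3 over the 18 arrays were found by Pearson's r. The arrays share their groups and the 2 that stand apart, so r describes these arrays and carries no test. For AT3G10020 the 5 highest were HSA32, MCCA, IVD, AT4G15260 and ETFQO (r = 0.93, 0.92, 0.90, 0.90 and 0.89). HSA32 is a heat-stress-associated protein known for keeping thermotolerance after acclimation. MCCA and IVD are mitochondrial enzymes of leucine breakdown, and ETFQO passes electrons from such dehydrogenases to ubiquinone. Their log2 changes in Col-0 at 2 h and 24 h were 1.91 and 0.55 for HSA32, 1.77 and 0.12 for MCCA, 1.87 and 0.07 for IVD, and 1.02 and -0.01 for ETFQO. In arp6-10 they were 1.85 and 0.43 for HSA32, 1.35 and 0.40 for MCCA, 0.88 and 0.14 for IVD, and 1.16 and 0.31 for ETFQO. From 16 arrays the arp6-10 changes were 2.04 and 0.82 for HSA32, 1.68 and 1.1 for MCCA, 1.00 and 0.48 for IVD, and 1.37 and 0.67 for ETFQO. Each thus had its higher mean at 2 h in both genotypes and in either fit, and r over 16 arrays was 0.88 to 0.93 for the 5.

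The 5 genes most like AT3G28270 were AT5G67290, AT1G62480, AT3G23080, AT5G54940 and AT2G34620 (r from 0.94 to 0.95, and from 0.93 to 0.95 over 16 arrays), and those most like AT3G24100 were AT5G57040, AT5G47435, AT5G01710, AT1G62250 and AT5G10160 (r from 0.94 to 0.97, and from 0.93 to 0.96 over 16 arrays). RefSeq gives no symbol to any of these 10. AT2G34620 had log2 changes of 1.66 and 1.94 in Col-0 at 2 h and 24 h, and AT5G54940 of 1.44 and 1.66, up at both times like AT3G28270. AT5G67290 had 0.98 and 0.77, AT1G62480 1.87 and 1.54, and AT3G23080 1.61 and 1.48, also up at both times but with the smaller value at 24 h. AT1G62250 had 0.92 and 2.09 and AT5G57040 0.82 and 1.88, with the larger value at 24 h like AT3G24100. Among the 3 genes themselves, r was 0.77 between AT3G28270 and AT3G24100, 0.64 between AT3G28270 and AT3G10020, and 0.12 between AT3G10020 and AT3G24100, or 0.73, 0.60 and 0.0066 over 16 arrays.

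**Figure D5:**
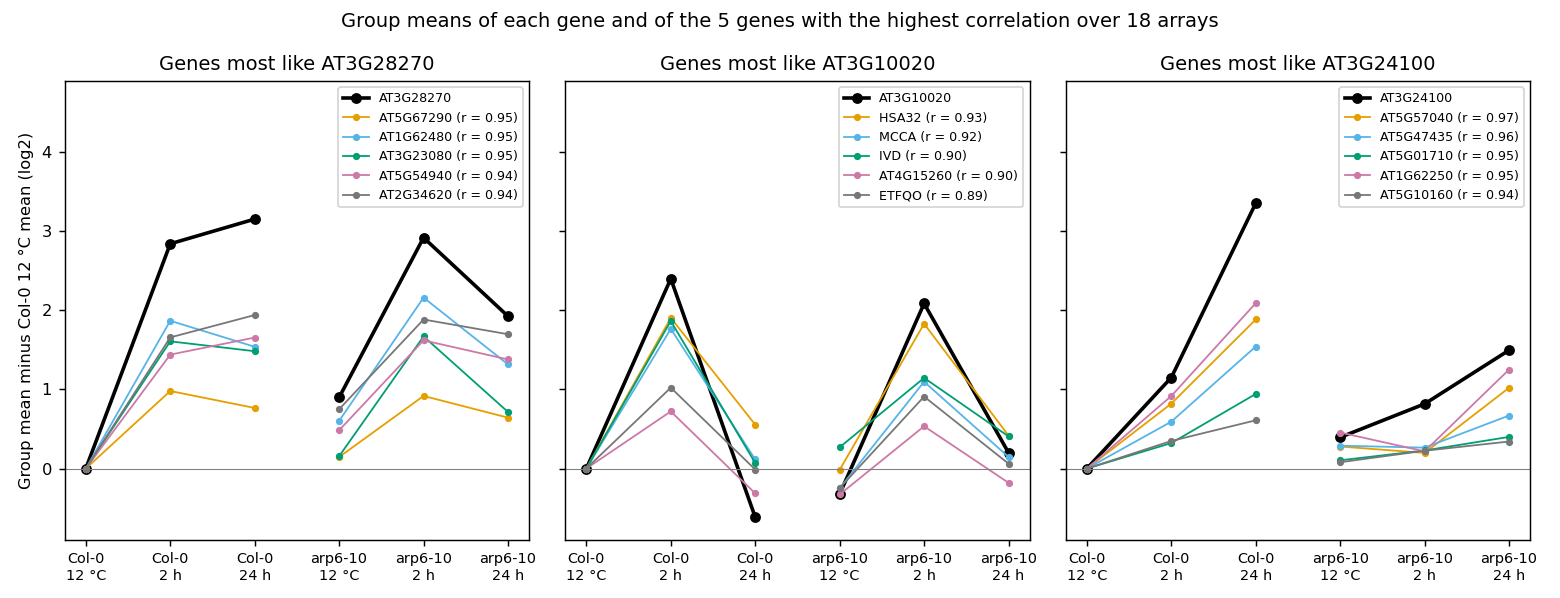
Mean log2 signal of each group minus the Col-0 12 °C mean for each of the 3 genes (black) and the 5 named genes with the highest Pearson's r to it over the 18 arrays (colours), with Col-0 and arp6-10 drawn as separate lines. HSA32, MCCA, IVD, AT4G15260 and ETFQO peak at 2 h with AT3G10020, while AT1G62250 and AT5G57040 are highest at 24 h in Col-0 with AT3G24100.

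Lists of 2 stress responses were set beside the 3 genes. Of 20 heat shock genes, 8 had a probe set of their own and 7 were tested. In Col-0 all 7 rose after 2 h, where 4.37% of probe sets rose, and 4 after 24 h, where 10.3% rose. Their median log2 change went from 2.91 at 2 h to 1.1 at 24 h, against 0.00 and -0.01 over all probe sets. From 2 h to 24 h 3 of 7 fell in Col-0, where 1.94% fell. In arp6-10 6 of 7 rose after 2 h, where 1.86% rose, and 6 of 7 fell from 2 h to 24 h, where 0.923% fell. From 16 arrays 5 of 7 fell between these times in Col-0 and 6 of 7 in arp6-10, where 6.24% and 7.82% fell. At 24 h against 12 °C none of the 7 passed in arp6-10 with all arrays (median 0.60), where 0% of probe sets rose, and 6 of 7 rose from 16 arrays (median 1.15), where 14.0% rose. So whether they were still above 12 °C after 24 h in arp6-10 depends on the 2 arrays. HSA32 rose 3.75-fold in Col-0 and 3.6-fold in arp6-10 at 2 h (adjusted p = 0.00423 and 0.000349), and then fell 2.55-fold and 2.67-fold by 24 h (adjusted p = 0.0326 and 0.00431). From 16 arrays these 4 calls stood, at 3.74-fold and 4.10-fold up and 2.55-fold and 2.33-fold down.

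Of 23 genes listed for low oxygen, 6 had a probe set of their own and 5 were tested. AT3G27220 rose 2.72-fold at 2 h and 2.26-fold at 24 h in Col-0 (adjusted p = 0.023 and 0.0328) and 2.12-fold at 2 h in arp6-10 (adjusted p = 0.0245). AT4G27450 rose 4.8-fold at 2 h in arp6-10 (adjusted p = 0.0147) and had a log2 change of 2.09 in Col-0 (adjusted p = 0.0642). So with all arrays 1 of 5 rose at 2 h in Col-0, where 4.37% of probe sets rose, and 2 of 5 in arp6-10, where 1.86% rose. From 16 arrays AT4G27450 also rose in Col-0 at 2 h (2.1, adjusted p = 0.000151). This made 2 of 5 in both genotypes, where 11.2% and 8.38% rose. AT4G27450 rose in arp6-10 at 24 h too (1.94, adjusted p = 9.31e-06), 1 of 5, where 14.0% rose. With all arrays 2 of 5 rose in Col-0 at 24 h, where 10.3% of all probe sets rose, and 1 fell, where 7.10% fell. AT4G10270 rose 1.97-fold and PDC2, a pyruvate decarboxylase of fermentation, fell 1.87-fold. CML38, a calmodulin-like protein, had log2 changes of 0.53 and 0.61 in Col-0 that did not pass. The median of the 5 at 2 h was 0.53 in Col-0 and 0.11 in arp6-10. Between genotypes at 24 h AT4G10270 was lower in arp6-10 by 1.12 log2 units (log2 difference -1.12, adjusted p = 0.0364), 1 of 5, where 0.452% of probe sets were called lower. From 16 arrays that difference was -1.15 (adjusted p = 0.0209), 1 of 5 again, where 1.36% were called lower.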

How the data were processed

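Total RNA (1 µg per sample) from 18 whole-seedling samples was labelled with biotin for Affymetrix arrays, per the labels' protocols. The deposited table holds linear intensity values of 22810 probe sets, from 0 to 37829.8. Per the submitters' processing notes the authors made them with GCOS, of which the version is not given in the sources used here. Without detection calls, a dim signal may be background.

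After 64 control probe sets were removed, log2(value + 16) was quantile-normalized between arrays (limma 3.58.1, R 4.3.3), and probe sets under the 30th percentile of mean signal were left out. limma's lmFit and eBayes with a trend fitted the 6 group means (12 residual degrees of freedom, 10 for 16 arrays). Each of 11 contrasts was tested two-sided, with Benjamini-Hochberg adjustment over 15922 probe sets and a threshold of 0.05. The procedure was tested on simulated data. The alternatives were the values as deposited, a pseudocount of 64, no filter on dim probe sets, the compared groups alone, a replicate block, 16 arrays, and each array left out in turn.

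Names came from the platform annotation, updated through RefSeq's TAIR10.1 table. It pairs 13513 probe sets with 1 gene, of which 13436 matched RefSeq, and 503 with several, and does not list 8730. No build is named, so no coordinates are given. The genes, gene lists and contrasts, and the 2 arrays set aside, were chosen with earlier results of these data known. Named genes are the 3, the 5 with the highest r to each, and list members with a probe set of their own. Drought genes had no such probe set, and the genes listed with AT14A that had one, AT3G28310 and AT3G28320, were too dim to be tested.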

Additional observations from a re-analysis of the deposited data

Results flagged for a closer look

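AT3G28270 and AT3G24100 each had 1 array far from the other 3 of its group, both times the array labelled arp6-10 24 h replicate 2. It read 5.75 for AT3G28270 and 5.68 for AT3G24100 on the log2 scale, and its gap to the nearest array took a share of 0.94 and 0.88 of the group's range, above Dixon's 95% critical value for 4 arrays. The same array gave 0.827 for AT3G10020, just under that value. Chance flags about 1 in 20 groups, and the 2 genes share the array. The array labelled 12 °C replicate 3 gave shares of 0.66, 0.60 and 0.81 for the 3 genes.

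The 24 h change of AT3G10020 differed between genotypes by 1.89 log2 units (arp6-10 minus Col-0) in the fit of 16 arrays, by the test of that difference (limma adjusted p = 0.00408). With all arrays it was 1.14 and was not called (adjusted p = 0.326).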

How the results depend on the processing

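Setting aside the 2 arp6-10 arrays moved the results most. From 16 arrays the arp6-10 change at 24 h was 2.19 for AT3G28270, 1.28 for AT3G10020 and 2.54 for AT3G24100. AT3G24100 then passed between 2 h and 24 h in Col-0 (2.22) and arp6-10 (1.46) and between genotypes at 24 h (-1.09), and its difference at 12 °C turned from 0.39 to -0.26, not called either way. AT3G10020 passed between genotypes at 24 h (1.20) and in the 24 h change (1.89). In the fit of the compared groups alone AT3G24100 passed between 2 h and 24 h in Col-0 (2.23). The difference of the 2 h changes of AT3G10020, 0.01, was -0.17 with the values as deposited and -0.053 with a pseudocount of 64, not called in any. The cause of these moves was not tested.

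The counts of called probe sets moved too. In the order 2 h and 24 h against 12 °C in Col-0, the same in arp6-10, 24 h against 2 h in Col-0 and arp6-10, genotypes at 12 °C, 2 h and 24 h, and difference of changes at 2 h and 24 h, they were 1258, 2775, 589, 0, 744, 291, 5144, 1473, 148, 94 and 929. limma's 0 for arp6-10 at 24 h stood beside 1691 probe sets at an unadjusted p under 0.05. From 16 arrays they were 3377, 4970, 2709, 4594, 2214, 2369, 6206, 3084, 478, 315 and 1933. With the compared groups alone the first was 2708, the fifth 1812, the sixth 158, the seventh 3208, the eighth 3072, the ninth 17, the tenth 28 and the last 482. The fifth was 1157 with the values as deposited, and the tenth 23 with a pseudocount of 64. Values as deposited moved the split of higher to lower calls from 1645 and 1130 to 2484 and 985 in Col-0 at 24 h, from 296 and 293 to 265 and 446 in arp6-10 at 2 h, and between 2 h and 24 h from 435 and 309 to 864 and 293 in Col-0 and from 144 and 147 to 241 and 138 in arp6-10. Between genotypes they moved it from 2806 and 2338 to 3693 and 1808 at 12 °C and from 823 and 650 to 1272 and 573 at 2 h.

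Leaving out 1 array at a time, the 24 h minus 2 h difference of AT3G10020 ran from -3.19 to -2.85 in Col-0 and from -2.06 to -1.51 in arp6-10, and that of AT3G24100 in Col-0 from 1.88 to 2.54 (called without arp6-10 24 h replicate 2). The genotype difference ran from -0.69 to 0.018 for AT3G10020 and from -0.26 to 0.70 for AT3G24100 at 12 °C, and from -0.18 to 0.34 for AT3G28270 at 2 h, and the difference of 2 h changes of AT3G10020 from -0.33 to 0.38. The counts, in the order above, ran from 218 to 2013, 464 to 3750, 196 to 1422, 0 to 1518, 70 to 1139, 130 to 1049, 2698 to 5757, 177 to 1990, 28 to 275, 9 to 210 and 96 to 1097.

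Replicate numbers in the titles showed no clear pairing of the arrays. Deviations of same-numbered arrays correlated at a median of 0.03 (-0.40 to 0.56 over 36 pairs, 9 over 0.1). Those of other-numbered arrays correlated at -0.015 (-0.85 to 0.65 over 96 pairs, 22 over 0.1). These deviations include the 2 arrays that stand apart, so a pairing may be missed. With the replicate block the 2 h genotype difference of AT3G28270 was -0.14 in place of 0.08, not called either way, and 59 probe sets passed in the difference of 2 h changes. It ended or added no call of the 3 genes.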

Other observations

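Few genes beside the 3 on the chromosome could be followed, and these were looked up after the values of the 3 had been seen. AT3G24110, the next gene after AT3G24100 in RefSeq, went the other way in Col-0. Its log2 change there was -1.24 at 24 h (limma adjusted p = 0.017), where 7.10% of probe sets were called lower and AT3G24100 changed by 3.36. In arp6-10 the change of AT3G24110 was -0.06, or -0.14 from 16 arrays. GFAT and AT3G24120, which lie 2 genes away, had -0.27 and -0.11 in Col-0 at 24 h and did not pass. AT3G10030, next to AT3G10020, rose by 0.77 in arp6-10 at 2 h (adjusted p = 0.00645), where 1.86% of probe sets rose, or by 0.88 from 16 arrays. It had 0.28 in Col-0 at 2 h, which did not pass. AT3G10040 had 0.50 in Col-0 and -0.04 in arp6-10 (-0.12 from 16 arrays) at 2 h and did not pass. AT3G28280, the neighbour of AT3G28270, was too dim to be tested.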
